A study of Mus musculus with 12 samples.

Results

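MMERVK10C-int is the name that RepeatMasker gives to the gene-bearing interior of a mouse ERVK retrovirus-like element, and its RNA was followed here from a testis extract to the complexes pulled down with the LINE-1 (L1) protein ORF1p. Members are the genomic loci that the tables of single repeats list under this name, 1480 of 781935 repeat loci, together with the row of MMERVK10C-int in the table of counts per repeat subfamily. The rule that picks them reads only the name.

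All 12 RNA-seq libraries came from testes of C57BL/6 Mael-/- mice at 3 months of age, so every group carries the Mael mutation and no control genotype is among these libraries. TOTAL is RNA of the clarified testis extract in 10 mM EDTA, INPUT is RNA of the pooled sucrose gradient fractions 5 to 8 of such an extract, BO is RNA recovered after incubating INPUT with beads that carried no antibody, and IP is RNA recovered from INPUT with an antibody to L1 ORF1p. Each of the 4 groups holds 3 libraries. The labels do not say whether libraries of a group came from separate animals, so p-values measure only the spread between these libraries. A null allele is present in every cell of these mice, and the extract is that of a whole testis.

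An endogenous retrovirus is the germline remnant of a retroviral infection, in which long terminal repeats (LTRs) with the promoter and the polyadenylation signal flank an internal part with the gag, pro and pol genes. RLTR10C is the LTR subfamily found at the ends of MMERVK10C. In mouse male germ cells such elements and L1 are silenced by DNA methylation directed by piRNAs, a pathway in which Maelstrom (MAEL) takes part, and L1 is derepressed when that pathway fails. ORF1p is the RNA-binding protein encoded by the first open reading frame of L1, and it mainly coats the L1 RNA from which it was translated.

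Mael itself was close to 0 in all groups, with a mean normalized count of 0.65 in TOTAL, 0.502 in BO and 0 in INPUT and IP. Germ cell and spermatocyte markers were abundant in TOTAL, where Dazl had a mean of 13894 and Sycp1, a protein of the synaptonemal complex, a mean of 9433. The spermatid markers Tnp1 and Acrv1 were at 30.1 and 11.7. Somatic genes were present too, among them Cyp17a1 of Leydig cells at 29894 and Wt1 of Sertoli cells at 3781. Reads on repeats numbered between 6021800 and 7282171 per library in TOTAL, between 3045169 and 3880641 in INPUT, between 1712212 and 3512997 in BO and between 1384904 and 2003193 in IP. The third BO library stood apart, since 52.1% of its reads on repeats fell on LSU rRNA against 1.94% to 15.9% in the other libraries, and the called subfamily comparisons of IP with BO are given with and without it. Locus means are group means, so those of BO include this library throughout.

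As a subfamily, MMERVK10C-int was higher in IP than in TOTAL, INPUT and BO, by 3.45-fold to 5.19-fold, and ORF1p immunoprecipitates held it among their most abundant repeat RNAs. Its normalized count per library, which the authors scaled to a common upper quartile, was 25912, 20175 and 19696 in TOTAL. In INPUT it was 28159, 23331 and 24366. The BO libraries gave 20953, 15258 and 14639. The IP libraries gave 119611, 83727 and 65446, so that the lowest of them lay above every library of the other groups. The IP group also had the widest spread, with a mean of 89595 ± 27555 (SD, n = 3) against 21928 ± 3459 in TOTAL, 25285 ± 2542 in INPUT and 16950 ± 3481 in BO. In the level of TOTAL, which is RNA of a whole tissue, the number of cells of a type and the RNA per cell cannot be told apart. BO and IP were both taken from INPUT, so their values describe the make-up of the RNA recovered from it.

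**Figure D1:**
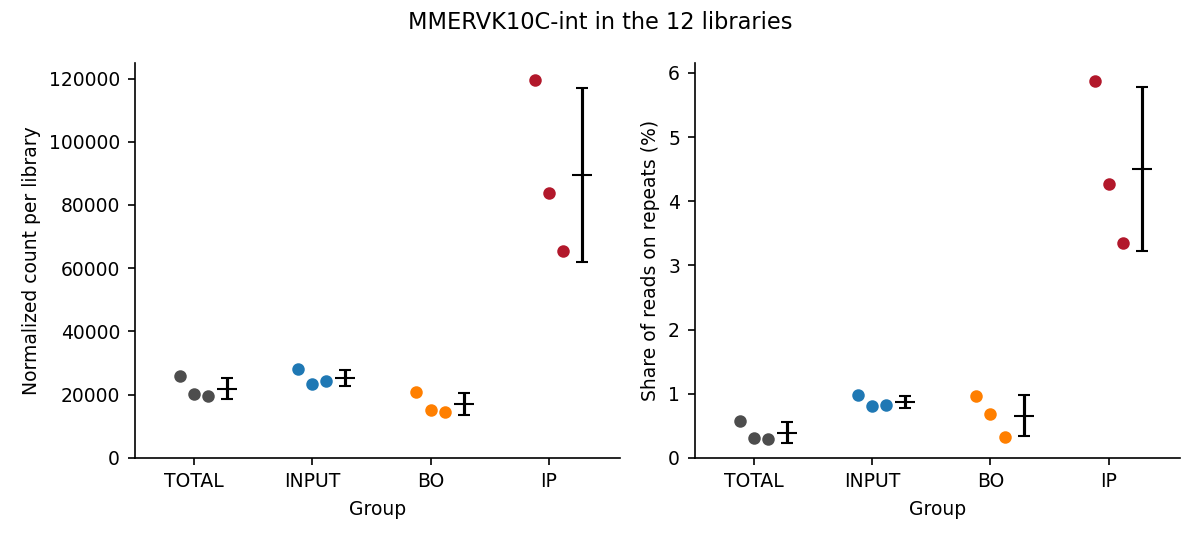
MMERVK10C-int in the 12 libraries: normalized count (left) and percent of the reads on repeats (right), 1 point per library, with the mean and SD of each group (n = 3) as a bar beside the points. The 3 IP libraries lie above all others on both scales, from 65446 to 119611 normalized counts and from 3.35% to 5.87% of reads.

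Reads on MMERVK10C-int made up 0.299% to 0.575% of reads on repeats in TOTAL, 0.806% to 0.984% in INPUT, 0.326% to 0.957% in BO and 3.35% to 5.87% in IP. The denominators differed in their content, since the small RNA repeat 7SL took 38.2% to 51.6% of reads on repeats in TOTAL, 17.0% to 18.7% in INPUT, at most 0.224% in BO and 1.16% to 1.63% in IP, and its part in these shares was not tested. The counts behind these shares ranged from 9129 reads in the third BO library to 81320 reads in the first IP library. Ordered by level among all 1528 listed subfamilies, MMERVK10C-int stood at places 25 to 26 in TOTAL, 16 to 19 in INPUT and 17 to 30 in BO. In IP it stood at places 1, 2 and 3, in a ranking that includes rRNA and small RNA repeats.

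A limma fit of log2(normalized count + 1) over the 1180 subfamilies averaging at least 10 gave a log2 fold change of 2.38 ± 0.20 (SE) for IP against BO, that is 5.19-fold, with a 95% interval from 1.94 to 2.82 and a Benjamini-Hochberg adjusted p of 5.02e-06. Without the third BO library the log2 fold change was 2.28 and the adjusted limma p 3.87e-05. Against INPUT, the material from which IP was taken, MMERVK10C-int was 3.45-fold higher (log2 fold change 1.79 ± 0.20 SE, adjusted p 7.24e-05 in limma). Against TOTAL it was 3.99-fold higher (log2 fold change 2.00 ± 0.20 SE, adjusted p 2.95e-05 in limma). All 3 IP libraries showed the direction in each of the 3 comparisons. These comparisons share the IP libraries and are not independent of each other. Their folds are of normalized counts and do not give amounts of RNA recovered.

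Among all subfamilies tested, the IP against BO comparison called 5.08% higher and 3.81% lower, a call being a log2 fold change past 1 with an adjusted p under 0.05. The same shares were 3.22% and 2.88% against INPUT, and 2.88% and 3.47% against TOTAL. Ranked by log2 fold change, MMERVK10C-int was at place 5 of 1180 against BO, 8 against INPUT and 5 against TOTAL. When only the 938 LINE, SINE, LTR and DNA elements were ranked, it was at places 3, 8 and 5. With the third BO library left out, 5.74% were called higher and 4.30% lower against BO, and MMERVK10C-int was at place 9 of 1185.

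Between the groups without antibody, MMERVK10C-int passed the call in none of the 3 comparisons. INPUT against TOTAL gave a log2 fold change of 0.21 with a 95% interval from -0.23 to 0.65 and an adjusted p of 0.674 in limma, while 0.339% of subfamilies were called in this comparison. BO against INPUT gave -0.59 with an interval from -1.03 to -0.15 and an adjusted p of 0.0457, short of the log2 threshold of 1, while 5.42% of subfamilies were called. Without the third BO library this value was -0.50 with an adjusted limma p of 0.137. BO against TOTAL gave -0.38 with an interval from -0.82 to 0.06 and an adjusted p of 0.192, beside 6.61% of subfamilies called, and without the third BO library it was -0.28 with an adjusted limma p of 0.406. With libraries scaled to their totals, which include the 7SL reads, INPUT against TOTAL was 1.22 (adjusted p 0.0064 in limma) and BO against TOTAL turned to 0.67, but that scaling also moved the median subfamily to 1.03 and 1.09, and relative to this median the values were 0.19 and -0.41.

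Markers of cell types moved with the IP group as well. All 5 germ cell and spermatocyte markers (Ddx4, Dazl, Sycp1, Sycp3 and Piwil1) had a higher mean in IP than in each other group, and their summed mean was 8.48-fold that of BO, 5.18-fold that of INPUT and 5.32-fold that of TOTAL. The 2 Sertoli markers were lower in IP in each comparison, at 0.352 of their summed mean in BO, 0.820 of that in INPUT and 0.481 of that in TOTAL. The 2 Leydig markers and the 2 macrophage markers were lower in IP than in INPUT, at 0.282 and 0.434 of the summed mean, and higher in IP than in BO. The summed mean of the 2 spermatid markers was 41.8 in TOTAL, 18.4 in INPUT, 0.921 in BO and 1.12 in IP on the scale of the BO table. The part of these differences in the level of MMERVK10C-int was not tested.

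The LTRs and internal parts related to MMERVK10C by name did not behave as one group. Of 14 RLTR10 and MMERVK subfamilies other than MMERVK10C-int, the calls were 5 higher against BO, 2 against INPUT and 3 against TOTAL, and 0 lower. Of all subfamilies tested, 5.08%, 3.22% and 2.88% were called higher and 3.81%, 2.88% and 3.47% lower in the same order. The median log2 fold changes of the 14 were 0.79, 0.73 and 0.45, against -0.12, -0.06 and -0.05 over all subfamilies tested. Without the third BO library 6 were called higher and 0 lower against BO, the added one being RLTR10. When libraries were scaled to their totals instead, 9, 9 and 13 of the 14 were called higher, while 10.2%, 10.2% and 84.6% of all subfamilies were, and the median of all subfamilies moved to 0.36, 0.48 and 1.49.

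Among these relatives, the LTR RLTR10B2 had the log2 fold changes closest to those of the internal part against INPUT and TOTAL. Against BO, RLTR10B was closest. RLTR10B2 stood at 934, 727 and 848 normalized counts in TOTAL, 989, 891 and 848 in INPUT, 826, 654 and 621 in BO, and 4268, 3349 and 2571 in IP. Its IP libraries did not overlap those of any other group, and its log2 fold changes were 2.26 ± 0.17 (SE) against BO, 1.87 ± 0.17 against INPUT and 2.00 ± 0.17 against TOTAL, with adjusted limma p of 1.73e-06, 1.88e-05 and 8.19e-06. RLTR10B, with 4421, 3407 and 2647 in IP and 553 to 1246 in the other groups, had log2 fold changes of 2.36, 1.52 and 1.62 in the same order. The log2 fold changes against BO without the third BO library were 2.17 (RLTR10B2, adjusted limma p 1.93e-05) and 2.41 (RLTR10B, 1.27e-05).

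RLTR10C, the LTR of MMERVK10C, was at 1933, 1668 and 1445 in IP and between 648 and 1024 in the other 9 libraries. It was called higher against BO (log2 fold change 1.29 ± 0.11 SE, adjusted p 3.68e-06 in limma) and against TOTAL (1.13 ± 0.11, adjusted p 1.66e-05), but at 0.85 ± 0.11 against INPUT it did not reach the log2 threshold of 1. Its value against BO was 1.25 without the third BO library. Against TOTAL it was 0.99 and not called without replicate 1, and against INPUT it was 1.02 and called (adjusted limma p 0.00146) without replicate 3. Within a library, where scaling has no effect, the log2 ratio of MMERVK10C-int to RLTR10C averaged 5.70 in IP, 4.61 in BO, 4.76 in INPUT and 4.83 in TOTAL. The ratio was higher in all 3 IP libraries than in any other, with an exact two-sided permutation p of 0.1 in each comparison, the smallest that 3 libraries against 3 allow (0.15 when adjusted over 12 such ratios). The difference between IP and BO in this ratio was 1.09, and 1.03 without the third BO library.

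Of the other internal parts with related names, MMERVK9E_I-int, MMERVK9C_I-int and MMERVK10D3_I-int were called in none of the 3 comparisons and RLTR10-int was called higher against BO. MMERVK9E_I-int had log2 fold changes of -0.11 against each of the 3 groups (adjusted limma p 0.368 to 0.399), and relative to the median subfamily it was at 0.02, -0.04 and -0.06 (0.03, -0.04 and -0.05 with libraries scaled to their totals). MMERVK9C_I-int had 0.38, 0.38 and 0.28, and MMERVK10D3_I-int had 0.48, -0.12 and -0.29, none past the threshold of 1. The last 2 were positive with libraries scaled to their totals, but relative to the median subfamily they were -0.06 and -0.23 under that scaling. RLTR10-int was called higher against BO at 1.20 and stood at 0.76 and 0.64 against INPUT and TOTAL. MMERVK10D3_LTR was called higher against BO at 2.41 ± 0.82 (SE, adjusted p 0.0386 in limma), but its counts were low, with 36.8, 29.5 and 22.4 in IP and 13.7, 0 and 11.2 in BO. This call, 1 of the 5 against BO, was lost with a pseudocount of 0.1 (adjusted p 0.0731 in limma), in a fit of IP and BO alone (0.0576), with edgeR (0.0511), without replicate 2 (log2 fold change 1.15, adjusted p 0.215) and without replicate 3 (0.0677), and was kept without the third BO library alone (2.97, adjusted p 0.0251). The remaining LTRs, RLTR10, RLTR10A, RLTR10D, RLTR10D2, RLTR10E and RLTR10F, were called in none of the 3 comparisons, though RLTR10, at 0.95 against BO, reached 1.09 without the third BO library and 1.03 without replicate 1, and was then called, as it was with median-of-ratios scaling (1.07) and with edgeR on recovered reads (1.09).

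**Figure D2:**
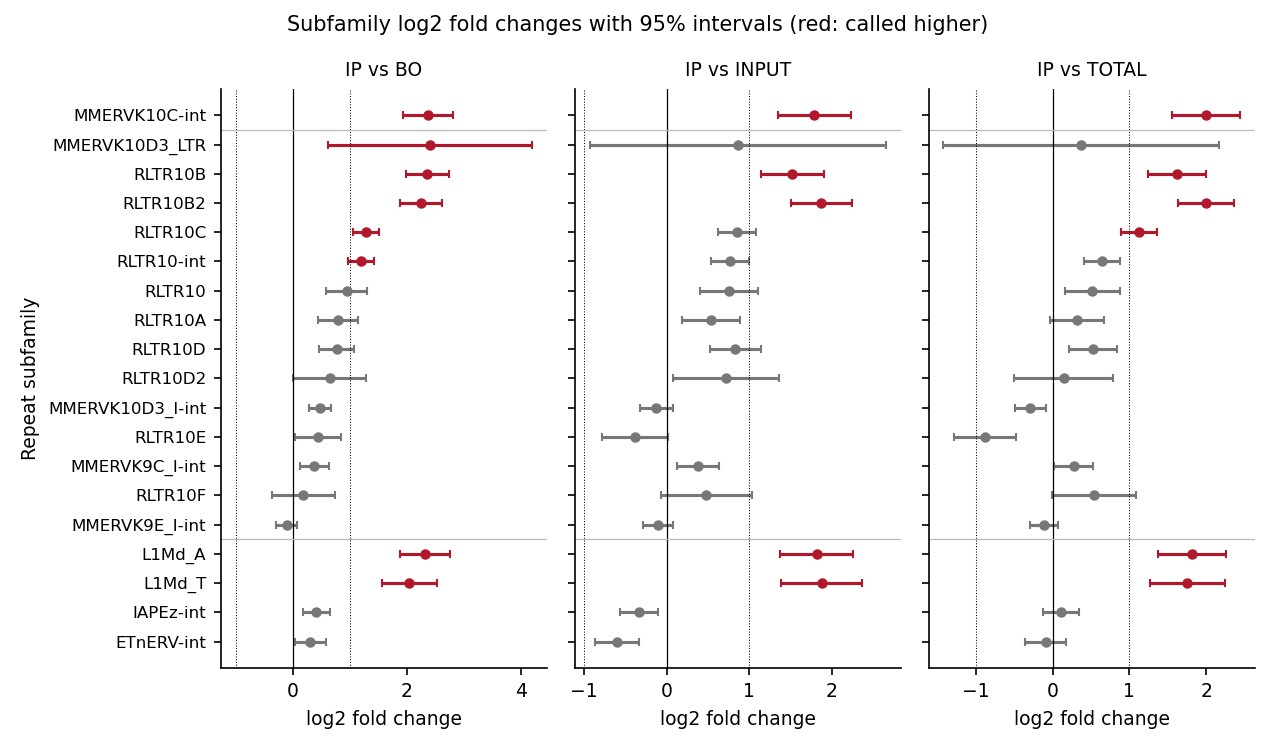
Log2 fold change of IP against BO, INPUT and TOTAL for MMERVK10C-int (top), its 14 relatives by name (middle) and 4 other retrotransposon subfamilies (bottom). Points are limma estimates with 95% intervals from 12 libraries, red points passed the call and dotted lines mark log2 fold changes of 1 and -1. RLTR10B and RLTR10B2 lie near MMERVK10C-int in the 3 comparisons, at 1.52 to 2.36, while MMERVK9E_I-int lies near 0.

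Among the other internal parts of ERVK elements, 45 were tested. The calls for IP were 5 higher and 5 lower against BO, 1 higher and 6 lower against INPUT, and 4 higher and 3 lower against TOTAL, with median log2 fold changes of 0.02, -0.08 and -0.11. Over all subfamilies tested, the shares called higher and lower were 5.08% and 3.81%, 3.22% and 2.88%, and 2.88% and 3.47% in the same order, so that 1 of 45 against INPUT is near the share of all. The 4 higher against TOTAL became 2 without replicate 1, 2 or 3 and 1 with a pseudocount of 10. The share of all subfamilies called under these settings is not given here, so the drop is not read as particular to ERVK internal parts. None of the 45 exceeded MMERVK10C-int in these 3 comparisons. The nearest was IAPEy-int, an intracisternal A particle (IAP) related element, with log2 fold changes of 2.09 against BO, 1.16 against INPUT and 1.95 against TOTAL, each called higher, the one against INPUT not without replicate 2 (1.06, adjusted limma p 0.0575). SRV_MM-int followed against BO with 1.62, ERVB5_1-I_MM-int with 1.53, IAP1-MM_I-int with 1.28 and RLTR10-int with 1.20. Without the third BO library 5 were called higher and 4 lower against BO, with IAPEy-int at 1.98 and the other 4 named here from 1.23 to 1.59. With libraries scaled to their totals 11, 9 and 36 were called higher, under the same shift of all subfamilies, of which 10.2%, 10.2% and 84.6% were then called. IAPEz-int, the internal part of a large IAP subfamily, had 0.41, -0.33 and 0.11, and ETnERV-int had 0.31, -0.60 and -0.09, where -0.33 and -0.09 turned positive under that scaling but were -0.27 and -0.02 relative to the median subfamily.

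Over the 12 libraries, the subfamilies whose log2 counts followed MMERVK10C-int most closely, out of 751 with a mean of at least 100, were RLTR10B2 (Pearson r 0.994), L1Md_A (0.987), MuRRS-int (0.983), RLTR10B (0.975) and LTRIS_Mm (0.975). These correlations describe levels over 4 groups that differ in the IP libraries, and they share libraries, scaling and depth. L1Md_A and L1Md_T are young L1 subfamilies with active copies in the mouse. MuRRS-int and LTRIS_Mm, a retroviral internal part and an LTR of the ERV1 family, had log2 fold changes of 2.27 and 2.59 against BO (2.21 and 2.67 without the third BO library), 1.80 and 2.06 against INPUT, and 1.96 and 2.07 against TOTAL.

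Set beside L1 itself, whose RNA is the usual partner of ORF1p, MMERVK10C-int was present at a similar level in every group. L1Md_A had 95645, 75201 and 56029 normalized counts in IP and between 14131 and 27258 in the other libraries. Its log2 fold changes were 2.32 against BO (2.29 without the third BO library), 1.81 against INPUT and 1.81 against TOTAL. The log2 ratio of MMERVK10C-int to L1Md_A within a library averaged 0.23 in IP, 0.18 in BO, 0.26 in INPUT and 0.05 in TOTAL. The IP and BO ratios overlapped (exact two-sided permutation p 0.7), as did those of IP and INPUT (exact p 0.9), and the direction of these 2 differences turned when 1 replicate number was left out. The IP ratio differed from that of BO by -0.013 without the third BO library. Against TOTAL the IP ratio was higher by 0.19 with no overlap (exact p 0.1, the smallest possible).

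With L1Md_T as reference, the within-library log2 ratio differed between IP and the other groups by 0.33 against BO, -0.09 against INPUT and 0.24 against TOTAL, with exact permutation p of 0.2, 0.5 and 0.1 (0.23 against BO without the third BO library). With IAPEz-int as reference the same differences were 1.97, 2.12 and 1.89, and the IP ratios, from 3.04 to 3.59, lay above all others, which ran from 1.18 to 1.62. The difference from BO was 1.91 without the third BO library. Each of these had an exact p of 0.1 and an adjusted p of 0.15, since no smaller p can be reached with these numbers of libraries.

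Single loci were compared through the means that the authors' tables give for each group, normalized within each table, with no value per library. The authors' own fold changes, standard errors and p-values per locus were not used, so no spread and no p is given for a locus, and a mean of TOTAL is not on the same scale as a mean of BO. To set the 4 groups side by side, the mean of a locus was also divided by the sum over all MMERVK10C-int loci of that group, which removes the scaling between groups but not that between libraries of a group. Copies of a retrotransposon are alike in sequence, so reads can be split between loci, and a locus value is uncertain to that extent. The summed locus means were 5927 in TOTAL, 7687 in INPUT, 4394 in BO and 17330 in IP in the table with TOTAL, from which IP means and shares of loci are given unless another table is named.

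Summed over the 1480 loci, MMERVK10C-int was 3.02-fold higher in IP than in BO, 2.26-fold higher than in INPUT and 2.92-fold higher than in TOTAL. Over all repeat loci in the same tables the sums were lower in IP, at 0.696, 0.830 and 0.597 of the other group. The 12708 loci of other ERVK internal parts summed to 0.300, 0.553 and 0.770 of the other group, and IAPEz-int loci to 0.909, 0.668 and 0.993. L1Md_A loci were at 3.61-fold, 3.26-fold and 3.43-fold. The MMERVK10C-int folds of the locus sums were smaller than those of its subfamily counts, which stand in a table scaled in another way, and the cause was not tested.

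Most MMERVK10C-int loci had little signal. In IP, 392 loci were at 0 and 177 had a mean of at least 10. At 0 were 630 loci in TOTAL, 491 in INPUT and 747 in BO, while 119, 137 and 89 had a mean of at least 10. A mean above 0 in all 4 groups was found for 496 loci, which held 96.1% of the IP signal and 95.3% of the TOTAL signal. Another 153 loci were above 0 in IP only, none of them with a mean over 2.50, and together they held 0.555% of the IP signal. The same count over all repeat loci, or for another group alone, was not made. Reads on MMERVK10C-int were also most numerous in IP, at 65395 to 81320 per library against 9129 to 41882 in the other groups. How far the counts of loci follow from these reads, or from the scaling of each table, was not tested.

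The signal sat in fewer loci in IP than in the other groups. In IP 20 loci held 50% of it, against 36 in TOTAL, 34 in INPUT and 30 in BO. The highest locus held 9.41% in IP, 3.16% in TOTAL, 3.02% in INPUT and 5.36% in BO. The top 10 loci of each group held 38.8% in IP, 23.7% in TOTAL, 24.2% in INPUT and 27.4% in BO. For comparison, 50% of the IP signal took 417 of 6562 loci for L1Md_A, 671 of 9583 for L1Md_T and 167 of 3019 for IAPEz-int. These are descriptions of group means, with no test.

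**Figure D3:**
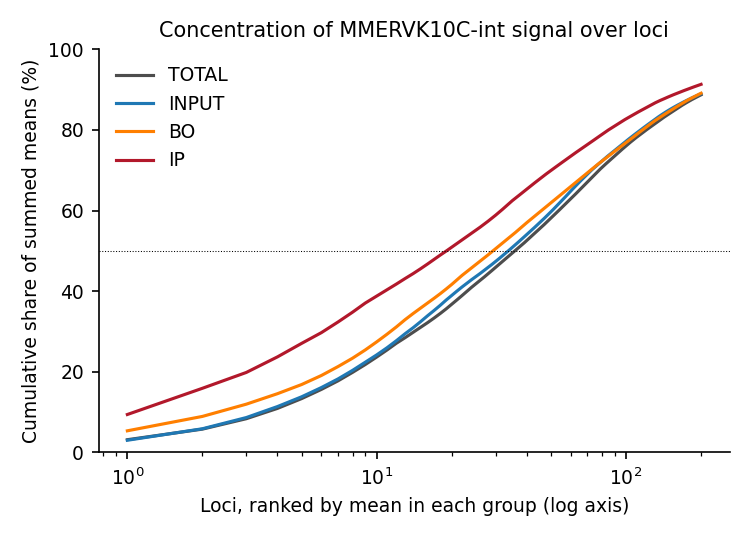
Cumulative percent of the summed MMERVK10C-int means (vertical axis) held by the highest loci of each group (horizontal axis, rank on a log scale, up to rank 200). The dotted line marks 50%, which IP crosses at 20 loci and TOTAL, INPUT and BO at 36, 34 and 30 loci.

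The highest locus in IP was MMERVK10C-int_186, named as in the tables, with a mean of 1631 in IP and 187 in TOTAL, an 8.71-fold difference. Against INPUT, at 162, it was 10.1-fold higher. Against BO, at 236, it was 5.29-fold higher in the table of that comparison, where its IP mean was 1247. It was the highest locus in TOTAL and BO too, but at place 8 in INPUT. Its share of the MMERVK10C-int signal was 3.16% in TOTAL, 2.11% in INPUT, 5.36% in BO and 9.41% in IP.

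MMERVK10C-int_2484 was second in IP with 1127 and first in INPUT with 232, and it was 7.81-fold higher in IP than in TOTAL and 4.86-fold higher than in INPUT. MMERVK10C-int_188 had 681 in IP (520 in the table with BO), 69.4 in TOTAL, 50.8 in INPUT and 78.9 in BO. It was 13.4-fold higher in IP than in INPUT, the largest ratio among loci with an average of at least 50 in that table, and its share was 0.660% of INPUT, 1.80% of BO and 3.93% of IP. MMERVK10C-int_3175 was at 419 in IP and 41.0 in INPUT, 10.3-fold higher.

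MMERVK10C-int_2284 and MMERVK10C-int_2285 were among the 10 highest in IP for their level rather than their ratio to INPUT. They had means of 462 and 300.2 in IP against 219 and 165 in INPUT, which is 2.11-fold and 1.83-fold. Their shares of IP, 2.67% and 1.73%, were below their shares of INPUT, 2.85% and 2.14%. The same 2 loci were 3.58-fold and 3.85-fold higher in IP than in BO, and 3.05-fold and 3.01-fold higher than in TOTAL. Their shares of BO (2.24% and 1.36%) and of TOTAL (2.55% and 1.68%) were below those of IP. MMERVK10C-int_1563, at 581 in IP and 214 in INPUT, was 2.72-fold higher. MMERVK10C-int_2948, MMERVK10C-int_2946 and MMERVK10C-int_33 were 4.94-fold, 5.16-fold and 7.18-fold higher in IP than in INPUT.

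Together the 10 highest loci of IP, which were chosen by their IP mean, held 38.8% of IP, 24.9% of BO, 17.7% of INPUT and 17.6% of TOTAL. In 7 of the 10 the share of BO was above that of INPUT, and in the other 3 it was below. Among the 78 loci with a mean of at least 20 in TOTAL, the balance was the other way. There the share of BO was above that of INPUT in 28 and below it in 50, with a median log2 ratio of the shares of -0.26. In RNA from the beads without antibody, some of the 10 loci highest in IP thus had a higher share than in INPUT. The summed normalized level of MMERVK10C-int was lower in BO than in IP, which does not give the amount of RNA held by the beads. Left out of the sums as a description, these 10 loci lower the fold of IP to 2.46 against BO, 1.68 against INPUT and 2.17 against TOTAL. Without the 50 highest loci of IP the folds were 2.00, 1.35 and 1.74. Leaving out loci chosen by a high IP mean pulls the fold down by the choice itself. These folds therefore do not show that the difference rests on few loci.

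**Figure D4:**
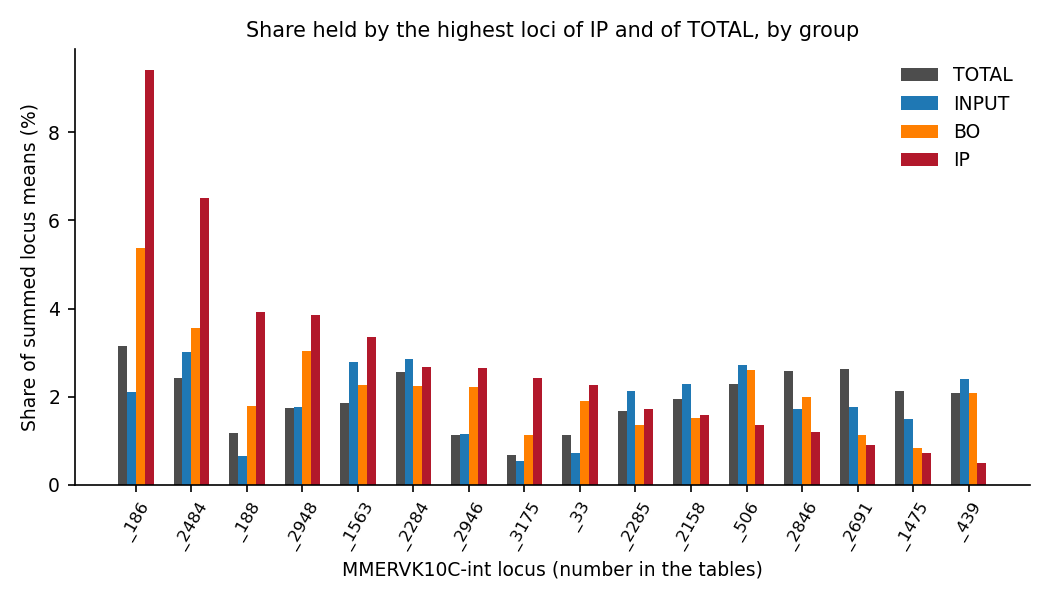
Share of the summed MMERVK10C-int means (percent) held in TOTAL, INPUT, BO and IP by the 16 loci that are among the 10 highest of IP or of TOTAL, ordered by IP share. Bars are shares of group means with no error. MMERVK10C-int_186 goes from 3.16% in TOTAL to 9.41% in IP and MMERVK10C-int_439 from 2.09% to 0.492%.

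The loci highest in TOTAL were only in part those highest in IP. The 10 highest of TOTAL and IP shared 4 loci (40% of each list), TOTAL and INPUT shared 7, and 4 loci were among the 10 highest in all 4 groups. Among the 50 highest, TOTAL and INPUT shared 43 (86% of each), TOTAL and BO 40, and TOTAL and IP 32 (64%). Across the 1480 loci, log2(mean + 1) correlated with a Pearson r of 0.927 between TOTAL and INPUT, 0.883 between TOTAL and BO and 0.891 between INPUT and BO. The Spearman rank correlations of the same pairs were lower, at 0.696, 0.629 and 0.643. These are descriptions over loci that share libraries and subfamily.

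Several abundant loci of TOTAL had ratios of IP to TOTAL below that of the summed loci. MMERVK10C-int_2691 had 155 in TOTAL and 156 in IP, 1.01-fold, and MMERVK10C-int_1475 had 126 and 127. MMERVK10C-int_2846 was 1.37-fold and MMERVK10C-int_506 1.74-fold higher in IP than in TOTAL. MMERVK10C-int_439 had 124 in TOTAL, 185.5 in INPUT and 91.3 in BO, and 85.3 in IP (65.4 in the table with BO), so it was lower in IP than in each other group (0.463 of INPUT and 0.716 of BO). Of the 10 highest loci of TOTAL it was alone in this.

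The lowest ratios of IP to INPUT, among loci with an average of at least 50, were those of MMERVK10C-int_531, at 139 in INPUT and 21.5 in IP (0.154 of INPUT), and MMERVK10C-int_528, at 99.0 and 19.6 (0.198 of INPUT). MMERVK10C-int_439, MMERVK10C-int_438 and MMERVK10C-int_686 followed with 0.463, 0.479 and 0.575 of INPUT. In these 5 loci the share of the signal was lower in IP than in TOTAL. MMERVK10C-int_531 held 0.123% of IP and 1.238% of TOTAL.

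Against BO, the highest log2 ratios among loci with an average of at least 50 in the table with BO were those of MMERVK10C-int_340 (3.32), MMERVK10C-int_2843 (3.15), MMERVK10C-int_342 (3.04), MMERVK10C-int_1346 (3.02) and MMERVK10C-int_2844 (3.00). Their BO means were low, from 8.95 to 18.3, and their IP means in the same table ran from 95.8 to 153. Each thus passed the minimum of 50 only through its IP mean, so these ratios only describe the loci picked. MMERVK10C-int_2843 and MMERVK10C-int_2844 were also 10.4-fold and 11.2-fold higher in IP than in INPUT, with INPUT means of 14.4 and 17.9, again under that minimum. The lowest folds over BO among the same loci, as ratios of the means, belonged to MMERVK10C-int_439 (0.716), MMERVK10C-int_3159 (1.10), MMERVK10C-int_669 (1.38), MMERVK10C-int_507 (1.53) and MMERVK10C-int_506 (1.57).

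**Figure D5:**
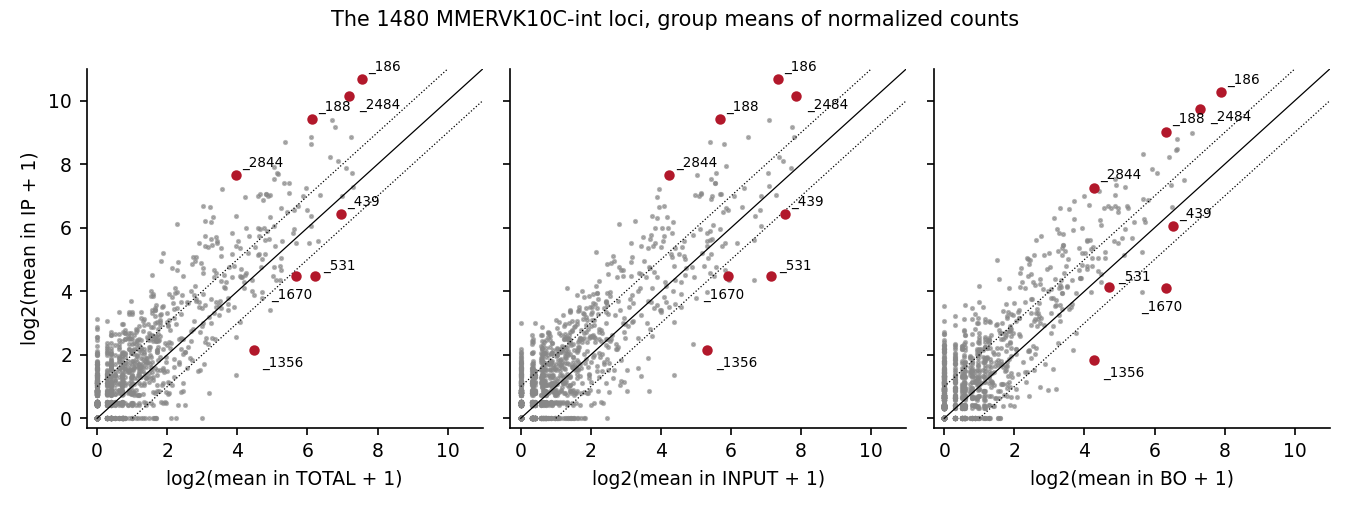
Mean normalized count of each of the 1480 MMERVK10C-int loci in IP (vertical) against TOTAL, INPUT and BO (horizontal), both as log2(mean + 1) and each panel from its own table. The solid line marks equal means and dotted lines a log2 ratio of 1 or -1. MMERVK10C-int_186 lies at the top, with 1631 in IP and 187 in TOTAL, and MMERVK10C-int_1356 lies below the lines, with 3.41 in IP and 21.4 in TOTAL.

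Counted over loci, the ratio of IP to each group was taken as log2((IP mean + 1)/(other mean + 1)), and a locus was counted when this passed 1 or -1. Among loci whose average of both means was at least 10, 86 of 135 were above 1 and 3 below -1 against BO, where 17.2% and 47.7% of all repeat loci were. Against INPUT 70 of 158 were above 1 and 15 below -1 (all repeat loci 22.1% and 31.2%), and against TOTAL 84 of 153 and 5 (24.1% and 24.3%). A locus can pass this minimum through its IP mean alone, so these counts describe the loci that passed and are not given as support.

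Loci were therefore also chosen by their mean in a group outside the ratio, which was decided after the data had been seen. Of the 119 loci with a mean of at least 10 in TOTAL, 64 (53.8%) were above 1 and 4 below -1 in IP against BO, beside 17.5% and 33.4% of all repeat loci chosen in the same way. Against INPUT 39 of these 119 (32.8%) were above 1 and 15 (12.6%) below -1, beside 11.2% and 34.9%. Of the 137 loci with a mean of at least 10 in INPUT, 65 (47.4%) were above 1 and 7 below -1 in IP against TOTAL, beside 9.15% and 31.7%. The medians of the log2 ratio were 1.15, 0.51 and 0.89 for MMERVK10C-int, and -0.39, -0.53 and -0.53 for all repeat loci chosen alike.

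The ratio differed between loci. Chosen by TOTAL, the middle 50% of MMERVK10C-int loci spanned -0.31 to 1.53 in the log2 ratio of IP to INPUT, and the extremes were -3.19 and 3.72. The 24 L1Md_A loci chosen in the same way spanned 0.83 to 2.07 with a median of 1.76, the 32 L1Md_T loci spanned -0.21 to 1.85 with a median of 1.46 and a lowest value of -3.57, and the 287 loci of other ERVK internal parts -1.61 to -0.11 with a median of -0.94. The 17 IAPEz-int loci had a median of -1.39, and the 21 RLTR10 loci one of 0.78.

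Of the loci that averaged at least 10 in all 3 tables, 134 in number, 60 (44.8%) had a log2 ratio above 1 in all 3 comparisons and 2 (1.49%) were below -1 in all 3, beside 17% and 9.97% of all repeat loci that passed the same minimum. Here too a locus can pass through its IP mean, so the counts are a description of those that passed. Those 2, named after their values had been seen, were MMERVK10C-int_1356, with 21.4 in TOTAL, 39.1 in INPUT, 18.5 in BO and 3.41 in IP (2.59 in the table with BO), and MMERVK10C-int_1670, with 49.9, 59.1, 79.7 and 21.3 (16.4 in the table with BO). In MMERVK10C-int_1670 BO was above INPUT in share, 1.81% against 0.769%, while IP was at 0.123%. Below -1 against INPUT were 11 of the 134 (8.21%), beside 20.4% of all repeat loci that passed.

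When loci were classed by their level in TOTAL, the fold of IP over INPUT was of like size in each class. It was 1.77 for the 630 loci at 0 in TOTAL, 2.16 for 421 loci up to a mean of 1, 2.03 for 249 loci from 1 to 5, 2.24 for 102 loci from 5 to 20, 1.99 for 53 loci from 20 to 50 and 2.51 for the 25 loci over 50. Against BO the same classes had folds of 2.03, 2.37, 2.61, 3.10, 2.89 and 3.25. Loci at 0 or of low level in TOTAL had a higher summed mean in IP too, and the 25 highest held 47.6% of IP and 42.9% of INPUT.

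Loci with neighbouring numbers in the tables had similar ratios. Among loci with a mean of at least 10 in TOTAL there were 41 pairs with consecutive numbers, whose log2 ratios of IP to INPUT correlated with r of 0.866 and differed by a median of 0.20. For the 34 pairs that lay 2 numbers apart r was 0.560 and the median difference 0.32, and for the 22 pairs 3 apart r was 0.844 and the difference 0.39, while all 7021 pairs of these 119 loci differed by a median of 1.30. Of the 20 highest loci in IP, 13 had another of the 20 within 2 numbers, such as MMERVK10C-int_186 and MMERVK10C-int_188 or MMERVK10C-int_2284 and MMERVK10C-int_2285. The tables do not say what the numbers stand for, so whether such loci are pieces of 1 insertion was not tested, and the loci should not be counted as independent of each other.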

How the data were processed

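The deposited tables cover 12 RNA-seq libraries, 3 in each of 4 groups (TOTAL, INPUT, BO, IP). Groups and replicate numbers come from the labels. Stranded libraries depleted of rRNA were read as 75 nt single ends by the authors. TOTAL, INPUT and IP libraries started from stated amounts of RNA, lower for IP. BO libraries started from whatever RNA lay in the volume used for IP, so normalized counts do not give amounts recovered.

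For repeats, alignment to mm10 was done by the authors with STAR 2.6.0c. They reassigned multimapping reads with Telescope, summed them per subfamily and scaled them to the upper quartile with EBSeq, which gives the deposited signal per subfamily and library (75th percentile 484 in each). Every value was a whole multiple of 1 step (100% within a tolerance of 0.1 read), so reads were recovered. For loci, the deposited signal is the mean normalized count per group, which the authors obtained with DESeq2 1.24.0 in a table for each comparison. These tables also hold the authors' overall mean, fold change, standard error, statistic and p-values, none of which was used. Whether the counts per locus come from Telescope, and whether counting used strand, is not given in the sources used here. Depth per library is unknown for the locus means.

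Subfamilies with a mean of at least 10 (1180 of 1528) were fitted as log2(normalized count + 1) with limma 3.58.1 in R 4.3.3 (1 fit of the 4 groups, eBayes with trend, Benjamini-Hochberg adjustment). Calls needed a log2 fold change past 1 and an adjusted p under 0.05. The fit was tested on simulated data. Ratios within a library used exact two-sided permutation tests. For loci only the group means were used, and no test was run. The alternatives were pseudocounts of 0.1 and 10, other minimums, library totals or median ratios as scaling, a fit of 2 groups, a replicate block, edgeR 4.0.16 on recovered reads, and replicates left out. Same-numbered libraries of TOTAL and INPUT deviated together (correlations of 0.629, 0.339 and 0.321 for numbers 1 to 3), which by the rule used here (every pair over 0.1) pairs these groups from the data alone. In every other pair of groups at least 1 correlation was under 0.1. Whether a number marks 1 extract is not given in the sources used here. Leaving out single libraries, and choosing loci by a group outside the ratio, were added after the data had been seen. No 2 libraries of a group agreed within sampling noise (chi-square per degree of freedom of at least 13.1).

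Named loci were the 10 highest of IP and of TOTAL and the 5 highest and 5 lowest log2 ratios of IP to INPUT and to BO with an average of at least 50. Named subfamilies were the relatives by name (RLTR10 or MMERVK), L1Md_A, L1Md_T, L1Md_F2, IAPEz-int, ETnERV-int, the 5 ERVK internal parts highest against BO and the 5 subfamilies most alike. The members, lists and rules were chosen with earlier results of these data known. Cell type markers were checked in the gene rows of the same tables, where 1 of 14 marker genes (Hbb-bs) had no row. Locus positions, lengths, flanking LTRs, gene context and sequences were not analysed here.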

Additional observations from a re-analysis of the deposited data

How the results depend on the processing

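The log2 fold changes of MMERVK10C-int in IP kept their direction and their call under every alternative run, from 2.38 to 2.87 against BO, 1.79 to 2.33 against INPUT and 2.00 to 3.55 against TOTAL, and from 2.15 to 2.58, 1.55 to 1.99 and 1.77 to 2.20 when 1 replicate number or 1 library was left out. With the replicate block the fold changes are unchanged by construction, the adjusted limma p were 1.19e-07, 1.14e-06 and 7.65e-07, INPUT against TOTAL was not called either (adjusted p 0.278), and the counts of relatives and ERVK internal parts called changed by at most 1. Scaling to library totals moved all subfamilies, with their median at 0.36 against BO, 0.48 against INPUT and 1.49 against TOTAL: INPUT against TOTAL became 1.22 (adjusted p 0.0064), BO against TOTAL turned to 0.67 (adjusted p 0.0924), relatives called higher were 9, 9 and 13, and ERVK internal parts called were 11 higher and 2 lower against BO, 9 higher against INPUT, and 36 higher and 0 lower against TOTAL. Of all subfamilies, 10.2%, 10.2% and 84.6% were then called higher and 1.39%, 1.48% and 1.39% lower against BO, INPUT and TOTAL. With that common shift the sign turned for MMERVK9E_I-int (0.39 against BO, 0.44 against INPUT, 1.44 against TOTAL), MMERVK10D3_I-int (0.42 against INPUT, 1.256 against TOTAL), RLTR10E (0.16 against INPUT, 0.65 against TOTAL), IAPEz-int (0.21 against INPUT) and ETnERV-int (1.46 against TOTAL). MMERVK9E_I-int against BO also turned with median ratios (0.014) and with edgeR on recovered reads (0.022). Leaving out a replicate number turned RLTR10F against BO (-0.003 without replicate 2), RLTR10D2 against TOTAL (-0.065 without replicate 1, up to 0.455 without replicate 2) and ETnERV-int against TOTAL (0.093 without replicate 3, down to -0.217 without replicate 1). It gave 0 to 1 ERVK internal parts higher against INPUT and 2 in each case against TOTAL, where a pseudocount of 10 gave 1. The share of all subfamilies called under these replicate and pseudocount settings is not given here, so the counts are not read against it. The log2 ratio to L1Md_A ranged from -0.013 (without the third BO library) to 0.13 against BO and from -0.18 to 0.07 against INPUT, and turned without replicate 3 (-0.008 and 0.066) and without replicate 2 (0.029 against INPUT).

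For loci, the percent above a log2 ratio of 1 against BO was 51.1 with a pseudocount of 10, 49.9 and 82.1 with an average of at least 1 and at least 50, 90.4 when centred on the median of all repeat loci (-0.90 in that table) and 53.8 when chosen by TOTAL. Against INPUT it was 52.8 with an average of at least 50, 52.5 when centred (median -0.25) and 32.8 when chosen by TOTAL, and against TOTAL it was 46.4 with a pseudocount of 10 and 70.0 with an average of at least 50. The percent below -1 was 0 against BO and TOTAL with an average of at least 50 and 5.06 against INPUT with a pseudocount of 10. An average of at least 1 or 50 or a choice by TOTAL changes which loci pass, a pseudocount of 10 pulls low means together, and centring shifts all ratios alike. Apart from the choice by TOTAL, the share of all repeat loci under these settings is not given here. The percentages are therefore not read against it. A locus can also pass an average of at least 1 or 50 through its IP mean alone, so they describe only the loci that passed. Comparisons by locus length, flanking LTR, gene context and sequence were planned and not run, because the tables used here give no position of a locus. Reads on MMERVK10C-int numbered 9129 to 33618 per library in BO, 18382 to 41882 in TOTAL, 28580 to 32238 in INPUT and 65395 to 81320 in IP over all its loci, and a locus at 0 was not detectable at this depth.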

Other observations

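Per read on the subfamily, the summed locus means of MMERVK10C-int were 0.243 in IP, 0.226 in TOTAL, 0.254 in INPUT and 0.242 in BO. The median over subfamilies in the same groups was 0.428, 0.301, 0.301 and 0.354, so the loci of MMERVK10C-int held 0.568 of the median in IP and 0.749, 0.844 and 0.683 of it in the others. L1Md_A was at 0.576 of the median in IP, and RLTR10B2 at 1.28. The numbers of the loci run to 3226, while 1479 numbers and 1 locus without a number have a row.

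Some of the loci that were lower in IP than in INPUT had neighbouring numbers as well, among them MMERVK10C-int_438 and MMERVK10C-int_439 (log2 ratios -1.05 and -1.10), MMERVK10C-int_528 and MMERVK10C-int_531 (-2.28 and -2.64), and MMERVK10C-int_1543, MMERVK10C-int_1545, MMERVK10C-int_1546 and MMERVK10C-int_1548 (-0.28, -0.32, -0.33 and -0.49), which were picked here after their values had been seen. How many of the lower loci have such a neighbour was not counted. MMERVK10C-int_340 and MMERVK10C-int_342, in contrast, were 4.23-fold and 3.64-fold higher in IP than in INPUT, and both over 8-fold higher than in BO. MMERVK10C-int_2843 and MMERVK10C-int_2844 were both over 10-fold higher in IP than in INPUT. MMERVK10C-int_1765 was lower in IP than in BO at a log2 ratio of -1.67, with 48.9 in BO and 14.7 in IP in that table. L1Md_F2 had log2 fold changes of 0.56 against BO, 0.67 against INPUT and 0.39 against TOTAL in limma, none past 1, and 1.06, 1.21 and 1.94 when libraries were scaled to their totals, each then called. That scaling moved the median of all subfamilies to 0.36, 0.48 and 1.49, and relative to the median L1Md_F2 was at 0.70, 0.74 and 0.45, against 0.68, 0.73 and 0.44 in the scaling of the authors.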
